A study of Mus musculus with 15 samples.

Results

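The collagen gene family was followed over 15 arrays of mouse carotid artery. Its members were taken by name alone: every gene whose symbol on the array reads Col, a number, the letter a and a number, from probe sets that carry exactly 1 gene symbol. This gave 44 genes on 47 probe sets among 22180 genes measured in all. They were placed in 11 fibrillar, 6 basement membrane, 3 network, 9 FACIT (fibril-associated) and 15 other genes. All female C57Bl/6J mice were 21 to 22 weeks old. The 4 groups were wildtype non-ligated (4 arrays), wildtype ligated (4 arrays), Has3-deficient non-ligated (4 arrays) and Has3-deficient ligated (3 arrays) arteries. In the ligated groups the left common carotid had been tied off 5 days earlier to start neointimal hyperplasia, the thickening of the inner vessel wall. The same 5 days after surgery are recorded for the non-ligated arrays. Has3 encodes a synthase of hyaluronan, a matrix sugar polymer. The labels name the mutants only as Has3 deficient, and do not say what part of the gene was deleted, whether the unligated arteries came from the operated mice, or whether each array is a separate animal. P-values therefore measure the spread between these samples, which may be technical.

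Collagens are the main structural proteins of the artery wall. Fibrillar chains assemble into the cables that bear load in the media and adventitia, and FACIT collagens sit on the surface of those cables. Type IV chains build the sheet-like basement membrane under endothelium and around smooth muscle cells, and type VIII forms a short-chain network made by vascular cells. Types VI, VII, XV and XVIII link cells, fibrils and basement membranes, and a few types span the cell membrane. After injury of an artery, smooth muscle cells and fibroblasts are known for making more matrix.

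Each value below is a log2 value relative to the median of the same probe set over all 15 arrays, so levels of different genes cannot be compared and only differences between arrays carry meaning. A gene with several probe sets has their mean. A change is a difference of group means on this log2 scale with its standard error, from limma fitted over all 22180 genes. The error of a gene uses a spread shared by all 4 groups, so a scattered group also widens the errors of comparisons without it. The threshold for a call was 0.05 on p-values adjusted by Benjamini and Hochberg's method over all of these genes. The number of arrays per group, 3 or 4, limits the precision. The Has3 probe set was not lower past the threshold in arteries labelled Has3-deficient (0.09 ± 0.14 in non-ligated, -0.20 ± 0.16 in ligated arteries), so it does not check the labels. Some non-ligated arrays stood apart in genes of other tissues: the mean of 8 neuron and chromaffin cell genes reached 4.61 in Has3-deficient array 3 and 2.78 in wildtype array 2, and the mean of 9 fat genes reached 2.00 in Has3-deficient array 4 and 1.84 in wildtype array 1. The only trace of a gene's level is the step between its stored numbers, and the 3453 genes with the coarser step in every array, 12 collagens among them, are called bright below. As bulk tissue was measured, fewer cells of a type and less RNA per cell cannot be told apart.

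Ligation in wildtype arteries raised all fibrillar collagens and lowered a subset of the basement membrane chains. Of 44 collagen genes 18 rose, 6 fell and 20 did not pass. Calls were made for 54.5% of collagens and 27.8% of all genes, and an unadjusted p under 0.05 for 28 collagens (63.6%) and 36.2% of all genes. Over all genes 13.2% rose and 14.6% fell, so the share of risers among collagens (40.9%) stood above the background and the share of fallers (13.6%) was near it. The arrays of both groups did not overlap for 24 collagens, or 54.5%, against 30% of all genes: 19 were higher (14% of all genes) and 5 lower (16% of all genes). The median change was 0.19 over the collagens and 0.0055 over all genes. Changes ran from -0.90 for Col4a4 to 2.12 for Col12a1.

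**Figure D1:**
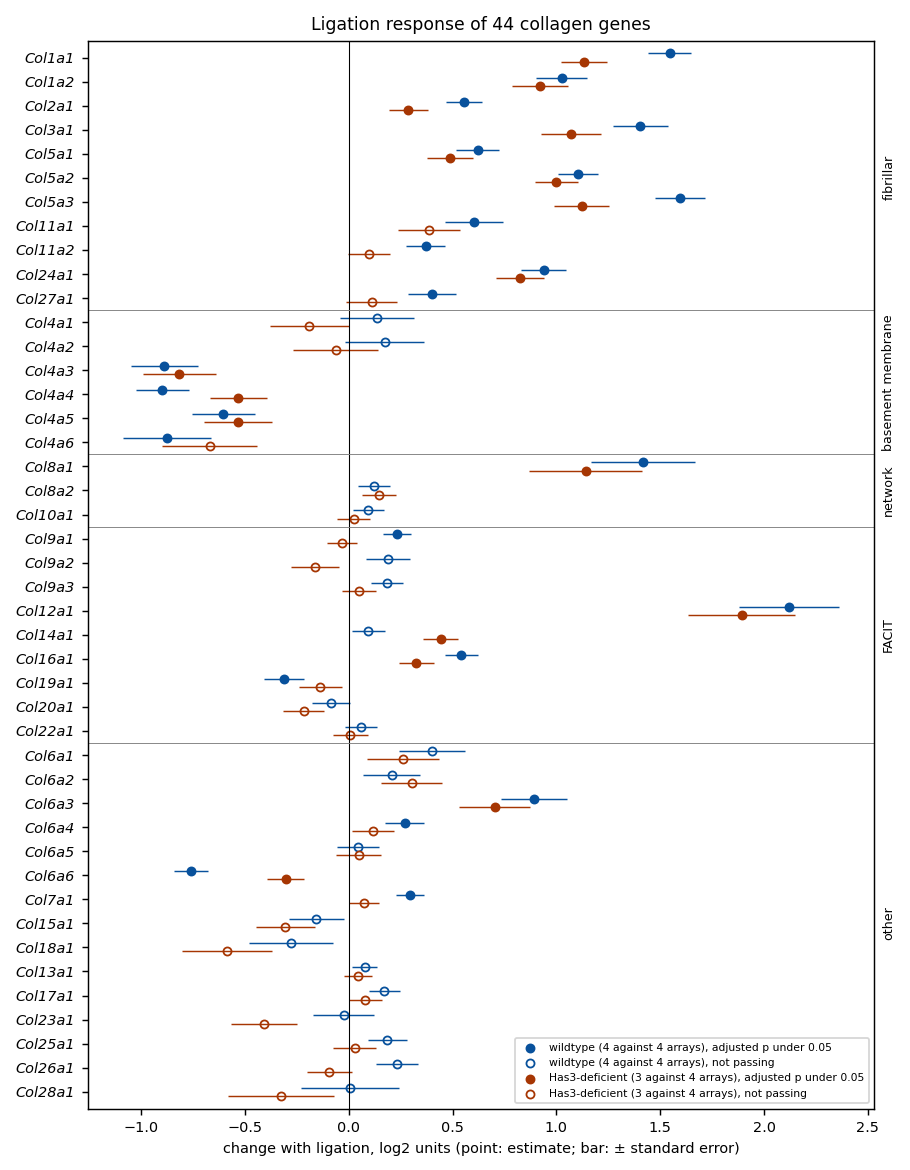
Change with ligation on the log2 scale (horizontal axis; points are estimates, bars are standard errors) for each of the 44 collagen genes by class, in wildtype (blue) and Has3-deficient (brown) arteries. Filled points passed at an adjusted p under 0.05; all fibrillar genes lie to the right of 0 in both genotypes and Col12a1 lies farthest to the right, at 2.12 in wildtype.

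All 11 fibrillar genes rose in wildtype arteries, with a median change of 0.94. Col1a1, the main chain of type I collagen, had values of -0.75, -0.64, -0.66 and -0.44 in wildtype non-ligated arrays 1 to 4 and of 0.84, 0.92, 1.05 and 0.90 in ligated arrays 1 to 4. Its lowest ligated array lay far above its highest non-ligated one, and the change was 1.55 ± 0.10 (2.92-fold, adjusted p = 9.54e-08). In Has3-deficient arrays Col1a1 stood at 0.00, -0.01, -0.50 and -0.28 without ligation (arrays 1 to 4) and at 1.01, 0.89 and 0.91 with it (arrays 3, 5 and 6). These groups were apart as well, and Col1a1 rose by 1.13 ± 0.11 (adjusted p = 5.35e-06).

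Col5a3, the third chain of type V collagen, which helps to start fibrils, rose most within the fibrillar class in wildtype arteries. Its values were -0.66, -0.88, -1.005 and -0.89 without and 0.59, 0.69, 0.93 and 0.75 with ligation, a change of 1.60 ± 0.12 (3.02-fold, adjusted p = 3.29e-07). In Has3-deficient arteries they were -0.32, -0.48, 0.00 and -0.64 without and 0.68, 0.74 and 0.88 with ligation (1.12 ± 0.13, adjusted p = 2.97e-05). Ligated and non-ligated arrays of Col5a3 were separate in both genotypes, and the non-ligated ones of Has3-deficient mice were more scattered. Col3a1, the chain of type III collagen of distensible tissues, stood at -0.70, -0.55, -0.79 and -0.37 in wildtype non-ligated and at 0.77, 0.65, 0.91 and 0.87 in ligated arrays. In Has3-deficient arrays it stood at -0.06, 0.00, -0.68 and -0.38 and 0.87, 0.71 and 0.78. Ligated arrays were the higher ones in both genotypes. Col3a1 rose by 1.40 ± 0.13 (2.65-fold, adjusted p = 2.8e-06) and in Has3-deficient arteries by 1.07 ± 0.14 (adjusted p = 0.000108).

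Col5a2 and Col1a2, the partner chains in type V and type I collagen, each rose by about 1 log2 unit. Col5a2 had -0.32, -0.31, -0.14 and 0.00 in wildtype non-ligated and 0.82, 0.88, 1.04 and 0.91 in ligated arrays, a rise of 1.10 ± 0.10 (adjusted p = 1.13e-06), and it rose by 0.999 ± 0.10 in Has3-deficient arteries (adjusted p = 8.7e-06). Col1a2 had -0.41, -0.37, -0.30 and -0.24 and 0.58, 0.63, 1.05 and 0.52, a rise of 1.03 ± 0.12 (adjusted p = 2.34e-05), and rose by 0.92 ± 0.13 in Has3-deficient arteries (adjusted p = 0.000213). Both probe sets of Col1a2 moved up in wildtype arteries, by 0.83 and 1.22. The probe sets of Col5a1, the main type V chain, were less alike: one changed by 0.94 ± 0.13 (adjusted p = 0.000116 over all probe sets) and the other by 0.30 ± 0.11 (adjusted p = 0.0564). Their mean rose by 0.62 ± 0.10 (adjusted p = 0.000383).

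The remaining fibrillar genes rose by under 1 log2 unit. Col24a1, a minor fibrillar chain, rose by 0.94 ± 0.11 (adjusted p = 1.5e-05). Col11a1 and Col11a2, chains of type XI that pair with cartilage fibrils, rose by 0.60 and 0.37. Col2a1, the cartilage fibril chain, rose by 0.55, and Col27a1 by 0.40. Beside these cartilage-type collagens, 1 of 10 cartilage marker genes rose (Acan, the large cartilage proteoglycan, 0.78) and none fell, and the mean of that list ran from -0.13 to 0.03 in wildtype non-ligated and from -0.04 to 0.15 in ligated arrays. The part of cartilage cells in the result was not tested. The call of Col27a1 was lost when array 2 was left out of the non-ligated (0.34) or ligated (0.35) wildtype group, and that of Col11a2 without the 5 arrays high in neuronal or fat genes (0.25). Leaving out these 5 arrays keeps only arrays 3 and 4 of the wildtype non-ligated group, here and below.

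**Figure D2:**
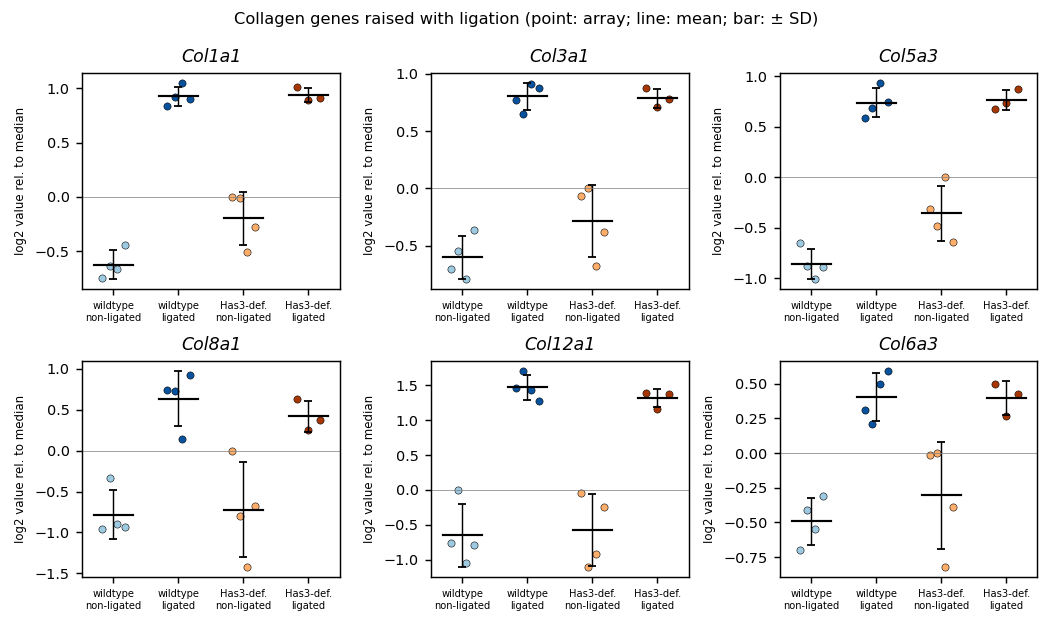
Log2 values relative to the median of 15 arrays (vertical axis, scaled for each panel) of 6 collagen genes in the 4 groups; points are arrays, lines are means and bars are standard deviations. In each panel the wildtype ligated arrays lie above the wildtype non-ligated ones; Col12a1 runs from -1.04 in 1 wildtype non-ligated array to 1.71 in 1 ligated array.

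The stretch of DNA just before the start of some of these genes is shown because the genes moved together or, for Col8a1 and Col8a2, did not although they encode partner chains. The sequences are those of RefSeq for build GRCm38.p6, and the set of promoters used here covered 35 of the 44 genes. Each runs 5′ to 3′ on the gene's own strand and ends at the base before the gene, so no transcribed base is included. Capitals mark 4 motifs searched on both strands: the CCAAT box, the TATA box spelled TATAAA, the GC box spelled GGGCGG, and the AP-1 site spelled TGACTCA. None of them holds another. Col1a2 (chr6:4505368-4505617, plus strand) and Col3a1 (chr1:45311288-45311537, plus strand) rose in both genotypes, as did Col24a1 (chr3:145292222-145292471, plus strand) and Col8a1 (chr16:57754738-57754987, minus strand). Col8a2 (chr4:126286544-126286793, plus strand) did not pass, and Col4a6 (chrX:141474096-141474326, minus strand) fell in wildtype arteries.
Col1a2: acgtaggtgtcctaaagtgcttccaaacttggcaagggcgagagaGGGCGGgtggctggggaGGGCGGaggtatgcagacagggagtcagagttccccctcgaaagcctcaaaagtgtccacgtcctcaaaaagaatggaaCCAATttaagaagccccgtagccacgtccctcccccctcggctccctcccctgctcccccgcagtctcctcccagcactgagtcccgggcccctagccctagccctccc
Col3a1: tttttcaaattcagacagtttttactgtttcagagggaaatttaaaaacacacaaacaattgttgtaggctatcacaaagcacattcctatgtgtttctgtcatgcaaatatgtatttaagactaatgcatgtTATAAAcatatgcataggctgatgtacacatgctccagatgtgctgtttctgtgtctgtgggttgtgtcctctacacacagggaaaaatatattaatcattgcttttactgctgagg
Col24a1: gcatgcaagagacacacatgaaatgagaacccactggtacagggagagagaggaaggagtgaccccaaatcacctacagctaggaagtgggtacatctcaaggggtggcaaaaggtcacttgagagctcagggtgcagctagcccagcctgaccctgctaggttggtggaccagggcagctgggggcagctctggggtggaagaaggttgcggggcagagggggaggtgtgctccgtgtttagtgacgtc
Col8a1: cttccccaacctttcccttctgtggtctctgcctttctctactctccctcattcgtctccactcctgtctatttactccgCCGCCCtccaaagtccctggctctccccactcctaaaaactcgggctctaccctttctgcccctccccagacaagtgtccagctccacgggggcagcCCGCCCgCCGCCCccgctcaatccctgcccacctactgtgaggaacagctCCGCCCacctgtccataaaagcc
Col8a2: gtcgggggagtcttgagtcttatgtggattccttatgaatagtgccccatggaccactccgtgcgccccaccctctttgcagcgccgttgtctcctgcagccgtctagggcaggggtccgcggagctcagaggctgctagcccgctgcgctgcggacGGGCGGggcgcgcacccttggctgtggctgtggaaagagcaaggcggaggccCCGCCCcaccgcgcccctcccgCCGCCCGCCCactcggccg
Col4a6: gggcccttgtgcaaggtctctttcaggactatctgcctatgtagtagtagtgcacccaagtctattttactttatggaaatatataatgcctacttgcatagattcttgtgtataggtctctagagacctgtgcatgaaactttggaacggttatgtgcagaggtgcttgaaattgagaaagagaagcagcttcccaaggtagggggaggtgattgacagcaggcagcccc

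In these windows Col1a2 held 1 CCAAT box 109 bases before the start and 2 GC boxes, and Col3a1 held 1 TATA box 117 bases before the start. Col8a1 and Col8a2 each held 4 GC boxes, counting both strands and, in Col8a2, a pair that overlaps, while Col24a1, which rose, and Col4a6, which fell and of which 231 bases were read, held none of the 4 motifs. Of all 32851 promoters in the table, 33.8% held a CCAAT box within the 250 bases before the start, 12.4% a TATA box, 32.7% a GC box and 4.46% an AP-1 site. Among 38 collagen promoters these shares were 34.2%, 13.2%, 57.9% and 2.63%. A GC box was found in 10 of 15 promoters of collagens that rose in wildtype arteries, in 3 of 5 of those that fell and in 9 of 18 of the others. A match is a description of the letters and shows no binding.

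Among the FACIT genes 3 rose and 1 fell in wildtype arteries, and 5 did not pass. Col12a1, which coats type I fibrils and is known from stretched and healing tissue, had the widest change of all collagens. Its values were -0.77, 0.00, -1.04 and -0.79 without and 1.47, 1.71, 1.43 and 1.27 with ligation, a rise of 2.12 ± 0.24 (4.35-fold, adjusted p = 1.27e-05). In Has3-deficient arteries the values were -0.04, -1.10, -0.92 and -0.25 and 1.40, 1.16 and 1.38, a rise of 1.89 ± 0.26 (3.71-fold, adjusted p = 0.00012). The ligated arrays were close together, while the non-ligated arrays of both genotypes spread over more than 1 log2 unit.

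Col16a1 rose by 0.54 ± 0.08 (adjusted p = 0.000128) and Col9a1, of cartilage fibrils, by 0.23 ± 0.07 (adjusted p = 0.0189). Col19a1, of basement membrane zones, fell by 0.31 on the log2 scale (adjusted p = 0.0245). Both small calls hang on single arrays. For Col9a1 it was lost on leaving out array 2 of the non-ligated group (0.20), array 4 of the ligated group (0.16) or the 5 arrays high in neuronal or fat genes (0.22). For Col19a1 it was lost on leaving out non-ligated array 3 (-0.27) or 4 (-0.29), or 1 of ligated arrays 1 (-0.27), 2 (-0.30) and 3 (-0.30). Col14a1, the other FACIT of type I fibrils, was at -0.10, 0.11, -0.14 and 0.04 without and -0.04, 0.16, 0.17 and 0.00 with ligation and did not pass (0.09 ± 0.08, adjusted p = 0.45). Nor did Col9a2 (0.19), Col9a3 (0.18), Col20a1 (-0.08) or Col22a1 (0.06).

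Of the 3 network genes 1 rose. Col8a1, the type VIII chain made by activated smooth muscle and endothelial cells, had values of -0.96, -0.34, -0.90 and -0.94 in wildtype non-ligated and of 0.74, 0.72, 0.15 and 0.93 in ligated arrays. The groups did not overlap, although non-ligated array 2 stood above its group and ligated array 3 below its own, and the rise was 1.42 ± 0.25 (2.67-fold, adjusted p = 0.000626). In Has3-deficient arteries Col8a1 had 0.00, -0.79, -1.42 and -0.67 without and 0.63, 0.26 and 0.38 with ligation (1.14 ± 0.27, adjusted p = 0.00875). Its partner chain Col8a2 did not pass in either genotype (0.12 ± 0.08 and 0.15 ± 0.08), with 95% intervals of -0.04 to 0.29 in wildtype and -0.03 to 0.32 in Has3-deficient arteries. Col8a2 had -0.25, -0.24, -0.05 and 0.00 in wildtype non-ligated and -0.02, -0.13, 0.10 and 0.00 in ligated arrays. In Has3-deficient arteries it had 0.00, -0.03, -0.08 and 0.12 and 0.24, 0.01 and 0.21. Col10a1, of growing cartilage, did not pass either (0.09 and 0.02).

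The class of other types was mixed, with 3 risers and 1 faller among 15 genes in wildtype arteries. Col6a3, the large chain of the type VI beaded filaments around cells, had -0.70, -0.41, -0.55 and -0.31 without and 0.31, 0.21, 0.50 and 0.59 with ligation and rose by 0.89 ± 0.16 (1.86-fold, adjusted p = 0.000636). Col6a1 and Col6a2, which share the filament with it, did not pass (0.40 ± 0.16, adjusted p = 0.0803, and 0.21 ± 0.14, adjusted p = 0.32). Col6a1 had -0.44, -0.26, -0.29 and -0.15 without and 0.02, 0.03, 0.39 and 0.03 with ligation, and Col6a2 had -0.38, -0.16, -0.21 and -0.09 and 0.04, -0.23, 0.13 and 0.03. In Col6a1, ligated array 3 stood above the other ligated arrays. The 2 probe sets of Col6a1 were at 0.25 and 0.55, and a further probe set that also carries other genes was left out. Col6a1 passed with array weights (0.37), with the groups compared alone (0.40) and among bright genes alone (0.40).

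Col6a6, an alternative type VI chain, moved the other way. It had 0.18, 0.29, 0.43 and 0.37 in wildtype non-ligated and -0.61, -0.37, -0.44 and -0.34 in ligated arrays, all of them apart, and fell by 0.76 on the log2 scale (adjusted p = 8.68e-06). Col7a1, of the anchoring fibrils of skin, rose by 0.29 ± 0.07 (adjusted p = 0.00401), a call lost without the 5 arrays high in neuronal or fat genes (0.26). Col6a4 rose by 0.27 ± 0.09 (adjusted p = 0.0455), a call lost on leaving out non-ligated array 1 (0.25), 2 (0.24) or 4 (0.29), ligated array 3 (0.18) or 4 (0.27), or the 5 arrays (0.20). Col15a1 and Col18a1, collagens of basement membrane zones, did not pass (-0.16 ± 0.13 and -0.28 ± 0.20). Without the 5 arrays high in neuronal or fat genes Col18a1 passed as lower (-0.40), with only non-ligated arrays 3 and 4 (0.27 and 0.33) left in that wildtype group. The transmembrane types Col13a1, Col17a1, Col23a1 and Col25a1 lay between -0.02 and 0.19 and did not pass. Col6a5 (0.05), Col26a1 (0.23) and Col28a1 (0.01) did not pass either.

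The basement membrane class split by chain. Col4a1 and Col4a2, which form the common type IV network of nearly all vessels, did not pass, and Col4a3, Col4a4, Col4a5 and Col4a6, the chains of more restricted networks, all fell in wildtype arteries. The split ran along the trace of level too: Col4a1 and Col4a2 were bright and Col4a3 to Col4a6 were not. Col6a6 and Col19a1, which also fell, were not bright either. The part of signal level in the split was not tested. Col4a1 had -0.10, -0.25, 0.00 and 0.00 without and 0.03, -0.08, 0.15 and 0.10 with ligation (0.14 ± 0.18, 95% interval -0.24 to 0.52), and the estimate for Col4a2 was 0.17 ± 0.19 (-0.23 to 0.58). Col4a2 had -0.29, -0.26, -0.16 and 0.00 without and -0.06, -0.14, 0.10 and 0.09 with ligation. The groups overlapped for Col4a1. Its standard deviation was 0.12 and 0.10 in wildtype non-ligated and ligated arrays and 0.46 in Has3-deficient non-ligated ones. That scatter enters the errors given here, and Col4a2 had 0.13, 0.12 and 0.52 in the same groups.

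Col4a4 had 0.29, 0.67, 0.39 and 0.40 in wildtype non-ligated and -0.39, -0.44, -0.57 and -0.45 in ligated arrays, and its change was -0.90 ± 0.13 (adjusted p = 0.000106). Col4a3 went from 0.33, 0.78, 0.44 and 0.23 to -0.52, -0.59, -0.39 and -0.27 (-0.89 ± 0.16, adjusted p = 0.000811). Each non-ligated wildtype array was above each ligated one for both genes. Col4a6, which joins Col4a5 in smooth muscle basement membranes, had 0.27, 0.56, 0.68 and 0.65 and -0.49, -0.14, -0.55 and -0.15 (-0.87 ± 0.21, adjusted p = 0.00623), and Col4a5 had 0.19, 0.27, 0.43 and 0.65 and -0.22, -0.22, -0.37 and -0.07 (-0.60 ± 0.15, adjusted p = 0.00805). Contractile smooth muscle markers moved with these chains: 11 of 12 fell in wildtype arteries, and the mean of that list ran from 0.20 to 0.50 in non-ligated and from -0.85 to -0.36 in ligated arrays. In Has3-deficient arteries Col4a4 stood at 0.48, 0.60, 0.00 and 0.16 without and at -0.44, -0.21 and -0.01 with ligation. The part of smooth muscle cells or of their state in the fall of these chains was not tested.

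**Figure D3:**
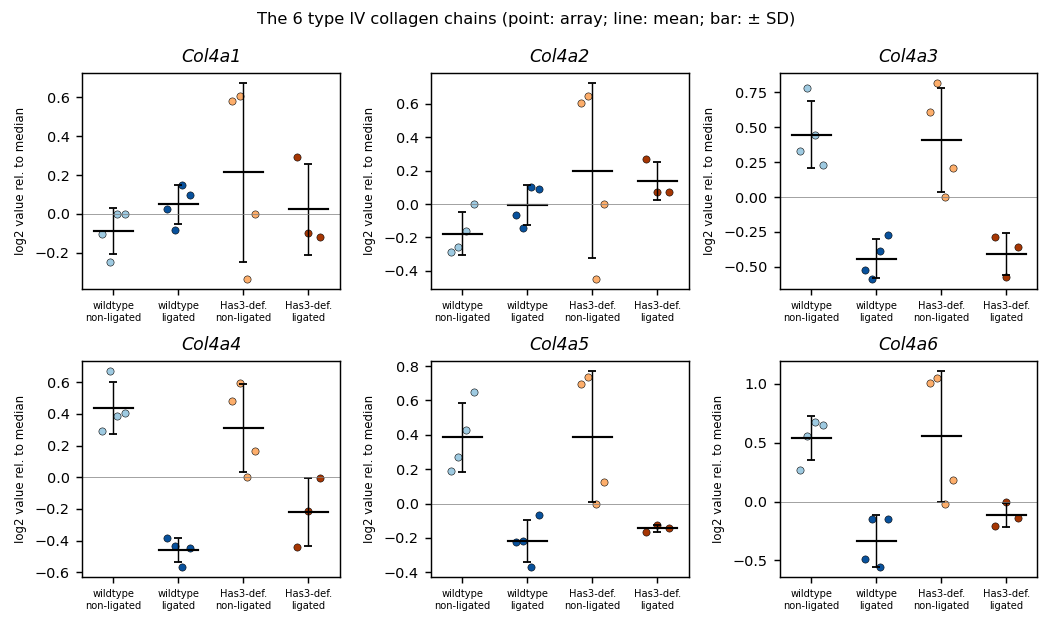
Log2 values relative to the median of 15 arrays (vertical axis, scaled for each panel) of the 6 type IV chains in the 4 groups; points are arrays, lines are means and bars are standard deviations. Col4a3 to Col4a6 were lower in ligated than in non-ligated wildtype arteries, and Has3-deficient non-ligated arrays 1 and 2 stand above arrays 3 and 4 in every panel.

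Chains known to share a collagen molecule were set against each other within each array. For 17 such pairs the difference of their values was compared between ligated and non-ligated arrays with a two-sided exact permutation test. In wildtype arteries 8 pairs reached an exact p = 0.0286, the smallest that 4 against 4 arrays can give, and 0 of 17 passed after Benjamini-Hochberg adjustment (adjusted p = 0.0607 for those 8). The difference of Col8a1 minus Col8a2 moved by 1.30 log2 units, that of Col1a1 minus Col1a2 by 0.52, that of Col5a1 minus Col5a3 by -0.97 and that of Col6a2 minus Col6a3 by -0.69. That of Col4a1 minus Col4a2 moved by -0.04 (exact p = 0.457) and that of Col4a3 minus Col4a4 by 0.01 (exact p = 0.943). Probe sets of a single gene differed as well in wildtype arteries. They changed by 0.94 and 0.30 for Col5a1, by 0.83 and 1.22 for Col1a2 and by 0.25 and 0.55 for Col6a1. The part of the probes in the shifts between chains was not tested. In Has3-deficient arteries 3 against 4 arrays cannot go below an exact p = 0.0571, which 6 pairs reached (adjusted p = 0.162, with 0 of 17 passing). Among these, Col8a1 minus Col8a2 moved by 0.995, Col5a1 minus Col5a2 by -0.51, Col6a1 minus Col6a3 by -0.44, Col6a2 minus Col6a3 by -0.40, Col4a3 minus Col4a5 by -0.28 and Col1a1 minus Col1a2 by 0.21.

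Ligation in Has3-deficient arteries raised and lowered many of the same collagens. Of 44 genes 13 rose, 4 fell and 27 did not pass, where 10.2% of all genes rose and 8.08% fell. The shares among collagens were 29.5% and 9.09%. Calls came to 38.6% of collagens and 18.3% of all genes. Arrays did not overlap for 17 collagens, 38.6% against 26.3% of all genes, 13 higher (all genes 13%) and 4 lower (all genes 13.4%). An unadjusted p under 0.05 was found for 22 collagens, against 29.2% of all genes. Of the 24 collagens that passed in wildtype arteries, 16 passed here in the same direction (12 up and 4 down), which is 16 of the 17 called here. The share of all genes that passed in both genotypes was not counted, so this overlap is not shown to be particular to collagens. Col14a1 was the only one that passed here alone, rising by 0.44 ± 0.08 (adjusted p = 0.00196). Its values were -0.18, -0.16, -0.43 and -0.24 without and 0.13, 0.17 and 0.27 with ligation, which did not overlap, and it did not pass without the 5 arrays high in neuronal or fat genes (0.35). The estimate was smaller in size than in wildtype arteries for all 24 genes that passed there, but a call in wildtype had chosen these genes for large estimates there.

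In this genotype 8 of 11 fibrillar genes rose. Col24a1 rose by 0.83 ± 0.12, Col5a1 by 0.49 ± 0.11 and Col2a1 by 0.29 ± 0.09 (adjusted p = 0.0489), while Col11a1 (0.39), Col11a2 (0.10) and Col27a1 (0.11) did not pass. The probe sets of Col5a1 were again less alike. One changed by 0.76 ± 0.14 (adjusted p = 0.00214 over all probe sets) and the other by 0.21 ± 0.11 (adjusted p = 0.28). The call of Col2a1 was lost without any 1 of the 7 arrays of this comparison (0.25 to 0.31). Col16a1 rose by 0.33 ± 0.09 (adjusted p = 0.016) and Col6a3 by 0.70 ± 0.17 (adjusted p = 0.0104). Col4a3 fell by 0.82 on the log2 scale (adjusted p = 0.00456), Col4a4 by 0.53 (adjusted p = 0.0156), Col4a5 by 0.53 (adjusted p = 0.0367) and Col6a6 by 0.30 (adjusted p = 0.0279). Over 15 alternatives the call was lost in 1 for Col4a3, in 3 for Col4a4, in 8 for Col4a5 and in 4 for Col6a6. Col4a6 did not pass (-0.67 ± 0.23, adjusted p = 0.0587).

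Main chains with smaller changes had these values in Has3-deficient arteries. Col1a2 stood at -0.01, -0.01, -0.52 and -0.28 without and at 0.80, 0.66 and 0.68 with ligation. Col5a2 stood at -0.12, -0.06, -0.44 and -0.15 and 0.95, 0.70 and 0.76. In both, the ligated arrays were the higher ones without overlap. Col5a1 stood at -0.06, 0.02, -0.49 and -0.30 without and 0.33, 0.12 and 0.39 with ligation, and in wildtype arteries at -0.39, -0.48, -0.18 and -0.32 and 0.34, 0.23, 0.33 and 0.21. Of the type VI chains, Col6a1 stood at 0.03, 0.15 and 0.37, Col6a2 at 0.22, 0.00 and 0.17 and Col6a3 at 0.50, 0.27 and 0.43 in the ligated arrays. Col6a2 had 0.05, 0.15, -0.57 and -0.32 in the non-ligated ones. Col6a1 and Col6a2 did not pass in this genotype (0.26 ± 0.17 and 0.30 ± 0.15).

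The estimated change differed in sign between the genotypes for 6 collagens, and only Col9a1 among them passed in wildtype arteries; none passed in Has3-deficient ones. Col4a1 and Col4a2 were at 0.14 and 0.17 in wildtype and at -0.19 and -0.06 in Has3-deficient arteries, where the ligated arrays had 0.30, -0.10 and -0.12 for Col4a1 and 0.27, 0.07 and 0.07 for Col4a2. Col9a1 had 0.00, -0.18, -0.06 and -0.07 in wildtype non-ligated and -0.07, -0.04, 0.00 and 0.00 in Has3-deficient non-ligated arrays, which overlapped. Col9a2, its partner in type IX collagen, had estimates of 0.19 and -0.16 without passing, Col26a1 of 0.23 and -0.09, and Col28a1 of 0.01 and -0.33.

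Arrays of these small collagens were scattered. Col9a2 had -0.03, -0.25, 0.00 and 0.04 in wildtype non-ligated, -0.05, 0.20, 0.16 and 0.20 in ligated, 0.23, 0.36, -0.21 and 0.00 in Has3-deficient non-ligated and -0.02, -0.07 and -0.10 in ligated arrays. Col26a1 had, in the same order of groups, -0.03, -0.41, 0.03 and 0.00, then 0.03, 0.22, 0.11 and 0.14, then -0.11, 0.02, -0.05 and 0.00, then 0.00, -0.01 and -0.37. Col28a1 had 0.00, 0.37, -0.34 and -0.12, then -0.18, -0.16, 0.16 and 0.12, then 0.12, -0.27, 1.16 and 0.27, then 0.11, -0.09 and -0.03. For Col28a1 a single Has3-deficient non-ligated array, array 3, was far above the others.

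The count in Has3-deficient arteries rested in part on ligated array 3: without it 10 collagens rose and 1 fell, and Col4a4 (-0.42), Col4a5 (-0.52), Col16a1 (0.27), Col6a3 (0.65) and Col6a6 (-0.23) did not pass. Col4a5 also did not pass without ligated array 5 (-0.54) or 6 (-0.54) or non-ligated array 1 (-0.43) or 2 (-0.42), and Col6a6 did not without non-ligated array 2 (-0.25). Without the 5 arrays high in neuronal or fat genes, which leaves only array 2 of the Has3-deficient non-ligated group, assumed to vary like the other groups, 9 rose and 12 fell, and Col5a1 (0.26), Col16a1 (0.22) and Col6a3 (0.40) did not pass. Col15a1 and Col18a1 did not pass with all arrays (-0.31 ± 0.14 and -0.59 ± 0.22). Without the 5 arrays Col4a1 (-0.58), Col4a2 (-0.51), Col15a1 (-0.56) and Col18a1 (-1.05) passed as lower. These calls rest on array 2, which had 0.61, 0.65, 0.52 and 0.92 for these genes and was the highest of its group for 24 of 44 collagens. Without non-ligated array 3 alone both of the latter passed as lower, Col15a1 at -0.42 and Col18a1 at -0.78, and Col18a1 also passed without array 4 (-0.69).

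The difference between the ligation responses, tested as the interaction of ligation and genotype, passed for 0 of 44 collagens and for 0% of all genes with limma, and 8 collagens (18.2%) had an unadjusted p under 0.05, against 8.12% of all genes. A larger estimate in Has3-deficient arteries was found for 0 of 11 fibrillar genes and for 10157 of 22180 genes in all. These 11 genes share the same arrays and are not separate observations. Their mean was -0.42, -0.44, -0.38 and -0.28 in wildtype and -0.08, -0.10, -0.28 and -0.24 in Has3-deficient non-ligated arrays. With ligation it was 0.48, 0.49, 0.66 and 0.53 in wildtype and 0.56, 0.41 and 0.54 in Has3-deficient arrays. The median difference was -0.27 for the fibrillar genes and -0.016 over all genes. Col6a6 had the lowest p, with a difference of 0.46 ± 0.12 (adjusted p = 0.44). Col14a1 followed at 0.35 ± 0.12 (adjusted p = 0.503), Col1a1 at -0.41 ± 0.15 (adjusted p = 0.53), Col5a3 at -0.47 ± 0.18 (adjusted p = 0.532) and Col9a1 at -0.26 ± 0.10 (adjusted p = 0.532). None of these differences passed; the 95% interval for Col1a1, which like all intervals here is not adjusted for the number of genes, was -0.74 to -0.08.

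Between ligated arteries of both genotypes 0 of 44 collagens passed with limma, as did 0% of all genes, and 3 (6.82%) had an unadjusted p under 0.05, against 4.1% of all genes. Groups did not overlap for 3 collagens (6.82%, all genes 6.9%), 1 higher (all genes 3.55%) and 2 lower (all genes 3.35%). The main fibrillar chains lay close together: the Has3-deficient minus wildtype difference was 0.01 ± 0.11 for Col1a1 (95% interval -0.23 to 0.25), -0.02 ± 0.14 for Col3a1 (-0.33 to 0.29) and 0.03 ± 0.13 for Col5a3 (-0.26 to 0.31). For Col12a1 it was -0.16 ± 0.26 and for Col8a1 -0.22 ± 0.27, with wider intervals of -0.71 to 0.40 and -0.80 to 0.37. The lowest p was that of Col9a1 (-0.21 ± 0.07, adjusted p = 1), which stood at 0.08, 0.08, 0.10 and 0.36 in wildtype and at 0.03, -0.10 and -0.11 in Has3-deficient ligated arrays. Col6a6 (0.25 ± 0.09), Col26a1 (-0.25 ± 0.11), Col8a2 (0.16 ± 0.08) and Col4a4 (0.24 ± 0.14) followed and did not pass.

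Between non-ligated arteries 0 of 44 collagens passed with limma, where 0.0857% of all genes did (0.00902% higher, 0.0766% lower), and 6 (13.6%) had an unadjusted p under 0.05, against 13.4% of all genes. Col5a3 and Col1a1 came nearest. Col5a3 was higher by 0.50 ± 0.12 in Has3-deficient arteries (adjusted p = 0.0978) with no overlap between the groups, and it passed without Has3-deficient array 4 (0.59). Col1a1 was higher by 0.42 ± 0.10 (adjusted p = 0.0978), with Has3-deficient array 3 (-0.50) below the highest wildtype array (-0.44), and it passed when bright genes alone were tested (adjusted p = 0.0468). Its adjusted p ran from 0.0468 to 0.311 over the alternatives.

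Col15a1 stood at -0.09, 0.08, 0.13 and 0.19 in wildtype non-ligated and at -0.07, -0.23, 0.00 and -0.02 in ligated arrays, and at 0.02, -0.13 and -0.02 in Has3-deficient ligated ones. Col18a1 stood at -0.18, -0.21, -0.24 and 0.20 in wildtype and at -0.02, -0.17 and -0.18 in Has3-deficient ligated arrays. For both, the ligated arrays of the genotypes overlapped.

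Further collagens of low p in this comparison were Col14a1, Col6a6 and Col7a1. Col14a1 was lower by 0.23 in Has3-deficient arteries (adjusted p = 0.223), at -0.10, 0.11, -0.14 and 0.04 in wildtype and -0.18, -0.16, -0.43 and -0.24 in Has3-deficient arrays, without overlap. Col6a6, at 0.09, 0.27, 0.07 and 0.00 in Has3-deficient arrays, differed by -0.21 ± 0.08 (adjusted p = 0.287) and Col7a1 by 0.16 ± 0.07 (adjusted p = 0.316). With ligation Col6a6 had -0.33, -0.12 and -0.13 in Has3-deficient arrays. Col7a1 had -0.12, -0.29, -0.21 and -0.08 in wildtype non-ligated, -0.05, 0.13, 0.20 and 0.20 in ligated, 0.00, 0.00, 0.00 and -0.05 in Has3-deficient non-ligated and 0.16, 0.03 and 0.00 in ligated arrays, and its non-ligated groups did not overlap. These comparisons share arrays with the ligation comparisons, so a high non-ligated value in Has3-deficient arteries is also a smaller rise with ligation. The difference was positive for 37 of 44 collagens and for 11998 of 22180 genes in all (median 0.12, all genes 0.011). The mean of the 44 collagens was 0.12, 0.11, -0.20 and -0.08 in Has3-deficient non-ligated arrays 1 to 4. It ran from -0.19 to -0.06 in wildtype non-ligated arrays, so only Has3-deficient arrays 1 and 2 lay above that range. Groups did not overlap for 3 collagens, 6.82% against 6.22% of all genes, 2 of them higher (all genes 2.4%) and 1 lower (all genes 3.82%). The mean of 11 adventitial fibroblast markers, of which 0 passed in this comparison with limma, ran from 0.10 to 0.28 in wildtype and from -0.10 to -0.01 in Has3-deficient arrays, and its part in the collagen values was not tested.

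**Figure D4:**
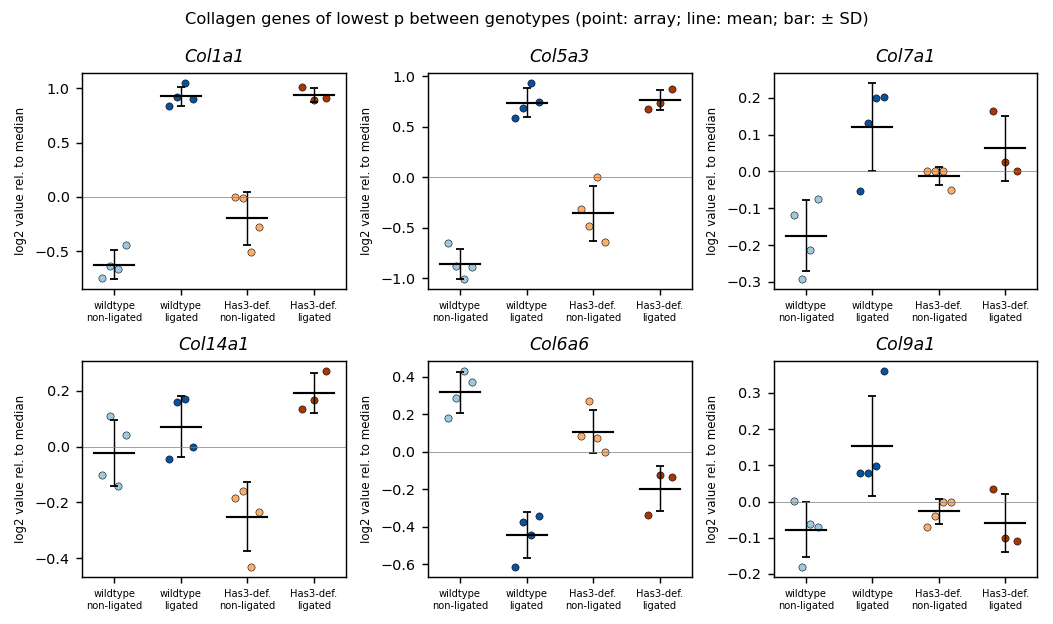
Log2 values relative to the median of 15 arrays (vertical axis, scaled for each panel) of 6 collagen genes with low p in a genotype comparison or the interaction; points are arrays, lines are means and bars are standard deviations. Col5a3 in non-ligated arteries lies between -1.005 and -0.66 in wildtype and between -0.64 and 0.00 in Has3-deficient arrays; none of these genes passed between genotypes.

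Arrays of the Has3-deficient non-ligated group were the most scattered in collagens of the 4 groups, a difference in spread that was not tested. The median standard deviation over the 44 collagens was 0.24 in this group and 0.14 over all genes there. It was 0.13 in wildtype non-ligated, 0.13 in wildtype ligated and 0.11 in Has3-deficient ligated arrays, where all genes had 0.11, 0.11 and 0.089. Col18a1, the source of endostatin, had 0.91, 0.92, -0.13 and 0.14 in Has3-deficient non-ligated arrays 1 to 4, against 0.00, 0.09, 0.27 and 0.33 in wildtype ones. Col4a1 had 0.58, 0.61, -0.33 and 0.00, Col4a2 0.60, 0.65, -0.45 and 0.00 and Col15a1 0.59, 0.52, -0.08 and 0.03 in the same Has3-deficient arrays. For these basement membrane genes arrays 1 and 2 were high, array 3 was lowest and array 4 lay between them.

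Some type VI and fibrillar chains were also lowest in array 3. Col6a1 had 0.18, 0.31, -0.53 and -0.27, Col6a3 -0.01, 0.00, -0.82 and -0.39 and Col1a2 -0.01, -0.01, -0.52 and -0.28 in Has3-deficient non-ligated arrays 1 to 4. Other chains of these types were not: Col5a3 (-0.32, -0.48, 0.00 and -0.64) and Col11a1 (-0.28, -0.50, 0.21 and -0.43) were highest in array 3, Col24a1 and Col6a4 were lowest in array 1, and Col2a1 and Col6a6 were lowest in array 4. Array 3 was the lowest of the group for 29 of 44 collagens, where 34.6% of all genes were lowest in it, and array 2 was the highest for 24, against 33.4% of all genes. Col28a1, a collagen of peripheral nerve, went the other way, with 0.12, -0.27, 1.16 and 0.27. Markers of other cells moved between the same arrays. The neuron and chromaffin list had means of 1.63, -0.14, 4.61 and 2.05 in arrays 1 to 4, the contractile smooth muscle list 0.51, 0.47, -0.02 and 0.30, the endothelial list 0.27, 0.10, -0.21 and -0.03 and the fat list -0.01, -0.63, 0.69 and 2.00. The macrophage list had -1.25, -0.88, -0.57 and -0.17 and the skeletal muscle list 0.10, 0.06, -0.01 and 0.77. Their part in the spread of the collagens was not tested.

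**Figure D5:**
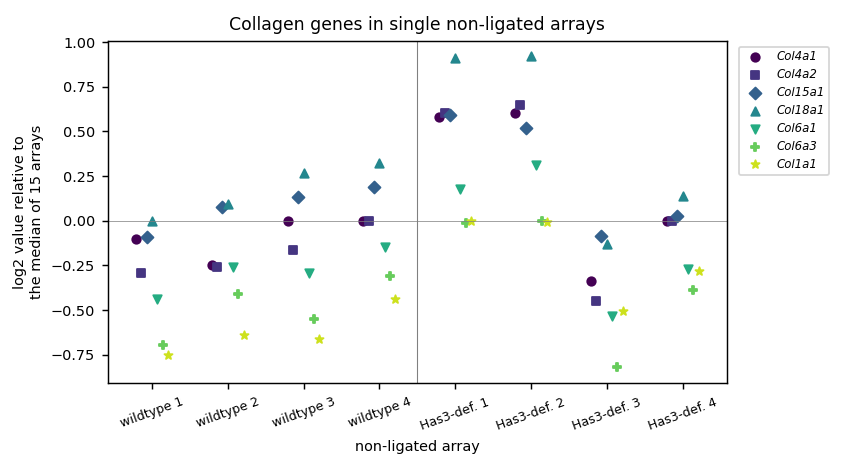
Log2 values relative to the median of 15 arrays (vertical axis) of 7 collagen genes in each of the 8 non-ligated arrays (horizontal axis, wildtype left and Has3-deficient right of the line). Has3-deficient arrays 1 and 2 are higher than arrays 3 and 4 for each of these genes, with Col18a1 at 0.91 and 0.92 in arrays 1 and 2 and at -0.13 in array 3.

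Many genes that process collagen chains passed as higher, where 13.2% of all genes rose and 14.6% fell in wildtype and 10.2% rose and 8.08% fell in Has3-deficient arteries. The lists here and below were chosen with earlier results of these data known, so their counts are descriptions only. Of 17 measured genes that hydroxylate, fold or export chains 10 rose and 1 fell in wildtype arteries, and 8 rose and 1 fell in Has3-deficient ones. P4ha3, a prolyl hydroxylase subunit, rose by 3.34 in wildtype and 2.93 in Has3-deficient arteries, P4ha1 by 0.96 and 0.92, and Plod1, a lysyl hydroxylase, by 0.95 and 0.90. Colgalt1, which adds galactose to hydroxylysine, rose by 0.72 in wildtype and 0.50 in Has3-deficient arteries, and Plod2, another lysyl hydroxylase, by 0.67 and 0.66. P3h2, a prolyl 3-hydroxylase known to act on type IV collagen, fell by 0.81 and 0.54.

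Of 11 measured genes of propeptide removal and crosslinking 7 rose and 1 fell in wildtype arteries, and 5 rose and 1 fell in Has3-deficient ones. Lox, the lysyl oxidase that crosslinks fibrils, rose by 0.97 and 1.09. Adamts3, which trims procollagen, rose by 1.08 and 1.29, and Bmp1, the C-propeptidase, by 0.86 and 0.80. Pcolce2, an enhancer of Bmp1, fell by 1.41 and 0.91.

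All 6 collagen degrading enzymes rose in both genotypes. Mmp13, a collagenase, rose by 3.78 in wildtype and 3.52 in Has3-deficient arteries, Mmp8 by 3.28 and 3.03, Mmp9 by 2.54 and 2.82, and Mmp14, the membrane-bound collagenase, by 2.01 and 2.12. Of 9 measured collagen receptors 2 rose and 3 fell in wildtype, and 3 rose and 3 fell in Has3-deficient arteries. The integrin chain Itga1, which binds type IV collagen, fell by 0.92 and 0.65, and Ddr2, a receptor of fibrillar collagen, by 0.66 and 0.42. Itga2 rose by 1.35 and 1.34, and Lair1, a collagen receptor of leukocytes, by 2.14 and 1.96. All 10 macrophage markers rose in both genotypes as well, with list means from -0.71 to -0.20 in wildtype non-ligated and from 2.02 to 2.32 in ligated arrays. The part of entering leukocytes in the rise of Lair1, Mmp8 and Mmp9 was not tested.

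Other cell types were read from the remaining marker lists in wildtype ligation: 3 of 10 endothelial genes rose and 5 fell, and 1 of 11 adventitial fibroblast genes rose and 6 fell. Of fat genes 3 of 9 fell, of Schwann cell genes 1 of 5, of skeletal muscle genes 1 of 9 and of bone genes 1 of 5, 1 of 6 epithelial genes rose, and 0 of 8 neuron and chromaffin genes passed. As 14.6% of all genes fell and 13.2% rose in this comparison, single calls in such short lists are near the background. Their part in the collagen changes was not tested.

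Fibril partners and TGF-beta genes were mixed. Of 12 fibril partners 6 rose and 2 fell in each genotype: Tnc rose by 2.90 and 2.46, Thbs1 by 3.56 and 2.85, and Fn1, fibronectin, by 0.70 and 0.67, and Fmod, a proteoglycan that limits fibril growth, fell by 0.91 and 0.45. Of 10 TGF-beta genes, a pathway known for raising collagen transcription, Tgfb1 rose by 1.25 and 1.28, and Tgfb3 fell by 0.90 and 0.46. Tgfbr3 fell by 0.56 and 0.38, and the other 7 did not pass in either genotype. In so short a list 1 riser and 2 fallers are near the background. Over all genes 13.2% rose and 14.6% fell in wildtype and 10.2% rose and 8.08% fell in Has3-deficient arteries. The median change of the list was -0.16 and -0.22, and its part in the collagen changes was not tested. Between genotypes 0 genes of these 6 pathway lists passed with limma in ligated or non-ligated arteries.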

How the data were processed

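RNA of 15 carotid samples (100 ng each, per the labels) was amplified, labelled with biotin and hybridised to 1 array each. The authors deposited log2 values for 33793 probe sets. The authors' values have a median of 0 over the arrays in every probe set, so levels are lost; array medians lie between -0.0014 and 0.017. That the base is 2 was inferred from the range of values. The sources used here do not give the software, the scaling between arrays or the build. No column was left unused.

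Gene symbols came from the platform's probe-to-gene table: 23521 probe sets carried 1 symbol, 1814 several and 8458 none listed. All 44 collagen symbols matched the RefSeq gene table. limma 3.58.1 (R 4.3.3) took all 4 groups in a single linear model (11 residual and 2.69 prior degrees of freedom), with no replicate block, after a test on simulated data. The members and lists were chosen with earlier results of these data known. Values were given in full for collagens that passed with a change of at least 1 log2 unit, for main chains of each class, for the 5 of lowest p in each genotype comparison and the interaction, and where genotypes disagreed in sign. Other collagens were named by class and values of further collagens were chosen after they were seen; of pathway lists at most 6 passing genes by size were named. A planned filter on low values used the only trace of level: the step between stored numbers, which is coarser for 3453 genes (12 collagens), called bright. Leaving out the 5 arrays with a neuronal or fat list mean above 1 was added after the data were seen.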

Additional observations from a re-analysis of the deposited data

Results flagged for a closer look

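In 9 of 132 groups of 4 arrays, 1 array lay far from the other 3 of its group for a collagen gene; chance gives about 1 in 20 such groups. In wildtype ligated arteries array 3 stood above the others for Col16a1 (0.45, others 0.23 to 0.26) and for Col6a1 (0.39, others 0.025 to 0.032). Array 4 of that group stood above them for Col9a1 (0.36, others 0.078 to 0.099) and Col18a1 (0.20, others -0.24 to -0.18), and array 1 below them for Col9a2 (-0.046, others 0.16 to 0.20). Wildtype non-ligated array 2 was high for Col8a1 (-0.34, others -0.96 to -0.90) and low for Col26a1 (-0.41, others -0.034 to 0.027). In Has3-deficient non-ligated arteries array 2 was high for Col11a2 (0.11, others -0.045 to -0.027) and array 4 low for Col7a1 (-0.051, with the other 3 at 0.00).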

How the results depend on the processing

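The wildtype count of 24 collagens was 21 to 24 under every alternative that tested all 44, and 6 among the 12 bright collagens, where fewer genes were tested. The Has3-deficient count of 17 was 11 with the groups compared alone, 7 of 12 among bright genes, 7 with a replicate block and 11 to 22 with 1 array left out. The labels do not say that a number marks a shared animal, so the main fit took no pairs. Same-numbered wildtype arrays correlated weakly after group means were removed (0.028 to 0.16), and 5 of 8 arrays went best with their own number. Pairing is thus not excluded. Numbers 5 and 6 occur in 1 array each, and the block removes those arrays from the comparison. Under the block the wildtype count was 22 and both genotype counts and the interaction stayed at 0. Between non-ligated arteries 1 collagen passed among bright genes (Col1a1), and 0 to 1 passed with 1 array left out (Col5a3); the other alternatives gave 0, as did all of them between ligated arteries and for the interaction. Signs of genes that did not pass turned in Has3-deficient ligation: Col4a1 (0.20) and Col4a2 (0.25) with the block, Col4a2 with 1 array left out (-0.28 to 0.087), and Col6a1 (-0.13) and Col6a2 (-0.020) without the 5 arrays high in neuronal or fat genes; the cause was not tested. Of 508 values of single genes in wildtype ligation 481 kept their direction and side of the threshold, and 301 of 357 in Has3-deficient ligation. The lost calls named in the results are not all of them. In wildtype ligation Col27a1 lost its call in 3 of 16 alternatives, Col9a1 in 4, Col19a1 in 6 and Col6a4 in 8. In Has3-deficient ligation Col1a2 lost its call in 1 of 16 and Col2a1 in 10 of 15. Quantile normalization and a common median turned no direction of a named collagen.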
